A study of Homo sapiens with 5 samples.

Results

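Immediate early genes are the genes a cell switches on first after a stimulus, before any new protein has to be made. Most encode transcription factors or short-lived regulators. Kinase cascades act on factors already bound at their promoters, the mRNAs appear quickly, and many are destroyed within a short time, so a late sample reads what is left, what is maintained or what has been induced again. In monocytes, members of this class respond to growth factors, bacterial products, adhesion and lipid mediators.

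The set described here holds 10 listed genes: FOS, FOSB, JUN, JUNB and ATF3, which encode basic leucine zipper proteins, EGR1 and EGR2, which encode zinc finger factors, the immediate early response genes IER2 and IER3, and NR4A1, which encodes an orphan nuclear receptor. A gene was taken in through every probe set annotated with its symbol alone. This gave 9 of the 10 genes, among 19775 genes so annotated on the array, and 18 probe sets of 54675. No probe set carried EGR2 as its single symbol in the annotation used, and EGR2 was not analysed here.

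The cells were MonoMac6, an established human monocytic line. Cultures were exposed to 1 of 4 eicosanoids, namely leukotriene B4, leukotriene C4 and the lipoxins A4 and B4, dosed at 100 nM from a stock in DMSO and left for 12 h, and were set against an unstimulated culture of the same line. The labels give no time for that culture and do not say whether DMSO was added to it. Each of the 5 conditions was read on 1 array, so no value below has a replicate error, no test could be made, and every difference is one between arrays.

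Leukotriene B4 is a dihydroxy fatty acid and leukotriene C4 a glutathione conjugate of the same precursor epoxide, while the lipoxins are trihydroxy fatty acids that differ from each other in where the hydroxyl groups sit. The title of the series divides eicosanoids into pro- and anti-inflammatory ones, so the comparisons are each compound against unstimulated cells, the compounds against each other, and leukotrienes against lipoxins.

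Values are fluorescence signals on a linear scale, brought to a common level across arrays. A signal of 48.7, the median over probe sets of their mean log2 signal, was used as the floor under which levels were not ordered. Differences are on the log2 scale, with values under the floor set to it. A gene counts as called when 2 arrays are at least 2-fold apart. Each gene is represented by its brightest probe set unless another is named, and signals of different probe sets are not compared, since probes differ in affinity.

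The arrays differed in ways that touch these genes. Very bright signals were lower on the lipoxin B4 array. The 99th percentile of signal was 14218 there and 15241 to 16222 on the other 3 stimulated arrays, against 15069.6 on the unstimulated one. Bright controls also differed between the classes. The bacterial control transcript cre gave 41846 with leukotriene B4, 42782 with leukotriene C4, 40146 with lipoxin A4 and 33660.4 with lipoxin B4, against 43823 in unstimulated cells. The 5′ probe set of GAPDH gave 35243, 36985, 33816 and 27762 in the same order, against 35492, and that of ACTB gave 37925, 41279, 36735 and 28061, against 39870.2. In all 3 controls the lipoxin arrays lay below the leukotriene arrays, with lipoxin B4 lowest. A control probe set for 18S ribosomal RNA read 913 with leukotriene B4, 3069 with leukotriene C4, 365 with lipoxin A4 and 1056 with lipoxin B4, against 186 in unstimulated cells. The 3′ to 5′ signal ratio of GAPDH, a sign of RNA integrity, lay between 0.996 and 1.06 on the stimulated arrays, against 1.03. The part of these array differences in the results was not tested. Of 10 monocytic markers with a probe set, 9 were above the floor on at least 1 array. Of these 9, the number below the unstimulated array was 8, 6, 6 and 7 with the 4 compounds in the order above. CD14, the lipopolysaccharide co-receptor, read 188, 319, 225 and 195 in that order and 225 in unstimulated cells. CD4 read 147 in unstimulated cells and was under the floor with leukotriene B4 and with lipoxin B4, a difference of -1.60 in each. The Fc receptor gene FCGR1A stayed under the floor. The summed signals of the 10 markers, each gene by its highest probe set on each array, lay between 50235 and 59785 on the stimulated arrays, against 61901. LYZ made up most of each sum, which therefore says little about the other markers. The brightest LYZ probe set read 36105 to 48899, against 49119. With lipoxin B4 it differed by -0.44, and the other LYZ probe set by -0.07. Markers of other cell types were above the floor on all 5 arrays in 1 of 4 genes for T cells, 2 of 3 for B cells, 1 of 2 for erythroid cells, 1 of 4 for fibroblasts and 2 of 4 for epithelium. Their sums, which are compared within a list only, were 133 to 286 on the stimulated arrays against 261 for T cells, 276 to 329 against 335 for B cells, and 145 to 183 against 194 for erythroid cells. They were 289 to 515 against 476 for fibroblasts and 843 to 972 against 999 for epithelium. CD3G and CDH1 were under the floor on every array.

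The plainest pattern concerned bright members. EGR1, IER2 and IER3 were each lower on both lipoxin arrays than on both leukotriene arrays, and lowest of all with lipoxin B4. FOS was also lowest with lipoxin B4, although its lipoxin A4 value lay between those of the leukotrienes. The lipoxin B4 array was thus the lowest of the 5 in 4 of 9 genes, all brighter than a signal of 2000, as it was in 17.0% of all measured genes and 27.8% of those over 2000. None of these differences from unstimulated cells reached 2-fold. The promoters of EGR1, IER2 and FOS are shown because these genes shared the low position on the lipoxin B4 array and each has 1 annotated start in the table used. The windows run from 250 bases before to 50 bases after the start, are RefSeq sequence of GRCh38.p14, and lie on the plus strand at chr5:138465229-138465528 for EGR1, chr19:13150161-13150460 for IER2 and chr14:75278578-75278877 for FOS. Capitals mark CArG boxes and the EGR element in EGR1, the short element TGACG on the minus strand in IER2, and TGACG and TATAAA in FOS.
EGR1: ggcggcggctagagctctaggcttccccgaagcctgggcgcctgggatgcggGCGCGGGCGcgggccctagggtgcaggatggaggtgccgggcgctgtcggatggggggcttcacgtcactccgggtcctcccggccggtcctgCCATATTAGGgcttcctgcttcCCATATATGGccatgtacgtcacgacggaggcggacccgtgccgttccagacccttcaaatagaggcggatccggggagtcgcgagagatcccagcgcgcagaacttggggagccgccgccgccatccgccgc
IER2: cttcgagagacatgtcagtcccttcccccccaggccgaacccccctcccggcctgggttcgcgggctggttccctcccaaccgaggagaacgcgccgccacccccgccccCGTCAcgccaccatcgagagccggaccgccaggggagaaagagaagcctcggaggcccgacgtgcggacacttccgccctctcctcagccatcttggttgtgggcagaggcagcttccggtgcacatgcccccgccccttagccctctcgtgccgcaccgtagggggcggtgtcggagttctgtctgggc
FOS: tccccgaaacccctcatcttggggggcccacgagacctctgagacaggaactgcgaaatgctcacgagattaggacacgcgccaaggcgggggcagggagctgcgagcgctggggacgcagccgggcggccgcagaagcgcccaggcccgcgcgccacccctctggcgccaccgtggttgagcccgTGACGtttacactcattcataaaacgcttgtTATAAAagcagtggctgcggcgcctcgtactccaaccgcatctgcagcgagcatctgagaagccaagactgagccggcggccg

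The CArG box is the site of serum response factor, through which growth factor signals reach many immediate early genes. EGR1 held 2 matches, beginning 105 and 83 bases before the start, whereas 1.29% of all 35116 promoter windows held at least 1 and 0.0313% held 2 or more. The EGR element, GCGNGGGCG, is the site EGR proteins bind, and EGR1 had 1 match beginning 198 bases before its start. It was found in 9.43% of all windows. The short element TGACG, part of the full cyclic AMP response element TGACGTCA, was present in the windows of EGR1, FOS, FOSB, JUN, JUNB and IER2, in 1 window of EGR2, and in 24.6% of all windows. The 3 windows of EGR2 also held 1 CArG box and 1 EGR element. No window of the 9 members in the promoter table, EGR2 included, held the full element (1.85% of all windows) or the AP-1 element TGANTCA (7.71%), searched on both strands. TATAAA began 33, 31 and 30 bases before the starts of FOS, JUNB and FOSB and 230 bases before a start of ATF3, and was present in 11.5% of all windows. A match describes these letters only, and IER3 was not in the table. Sequence more than 250 bases before a start was not searched. The lack of a match in a window, as for the CArG box in FOS, therefore does not show that the gene lacks the site.

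**Figure D1:**
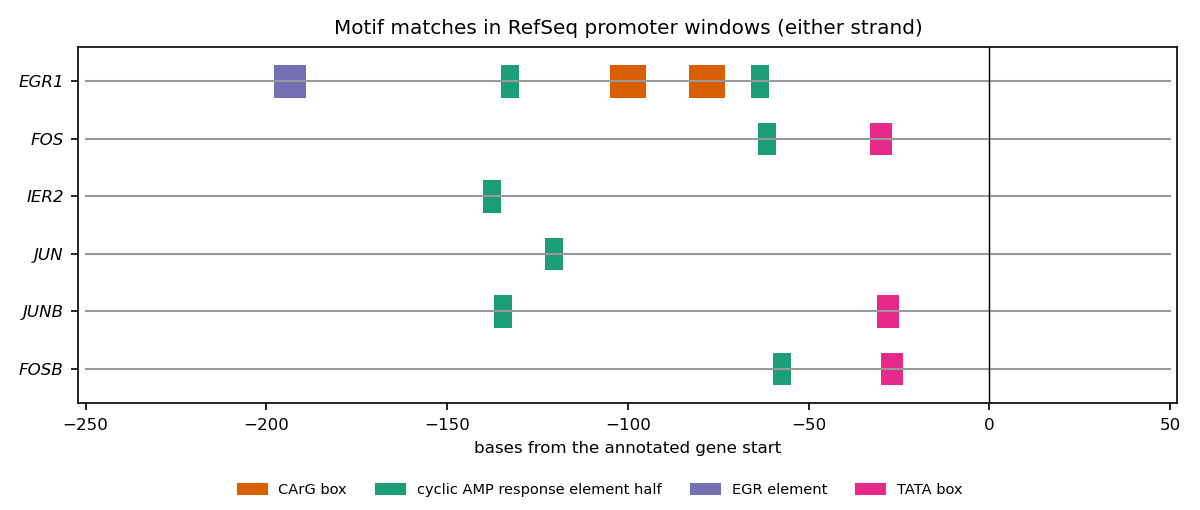
Motif matches in the RefSeq promoter windows of 6 members with 1 annotated start, drawn by distance in bases from the gene start; coloured boxes are matches on either strand. EGR1 carries 2 CArG boxes, while TATAAA lies near the starts of FOS, JUNB and FOSB.

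EGR1, a zinc finger activator induced through serum response factor and important in monocyte differentiation, lies on chromosome 5 (138465479 to 138469303). Its brightest probe set, 227404_s_at, read 3313 with leukotriene B4, 2984 with leukotriene C4, 2773 with lipoxin A4 and 2159 with lipoxin B4, against 3006 in unstimulated cells. The differences were 0.14, -0.01, -0.12 and -0.48 in that order. The lipoxin B4 array stood apart as the low one, and the leukotriene and lipoxin arrays did not overlap. The second probe set, 201694_s_at, gave 2214, 2523, 1806 and 1405 on the stimulated arrays in the same order, against 2697. There all 4 compounds were below the unstimulated array, lipoxin B4 by -0.94 and lipoxin A4 by -0.58. The third, 201693_s_at, gave 369.7, 406, 275 and 263, against 452, with -0.72 for lipoxin A4 and -0.78 for lipoxin B4. All 3 probe sets thus put lipoxin B4 lowest and lipoxin A4 next, and they disagreed on leukotriene B4, which was above the unstimulated array by 0.14 in 1 and below it by -0.28 and -0.29 in the others. Probe sets of 1 gene share the same RNA and array, so they are no replicates.

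IER3, a short-lived protein that modulates survival and NF-kappaB signalling, lies on chromosome 6 (30743199 to 30744547). It read 4916 with leukotriene B4, 5470.4 with leukotriene C4, 4139 with lipoxin A4 and 3844 with lipoxin B4, against 4775 in unstimulated cells. Both leukotriene arrays were above the unstimulated one, by 0.04 and 0.20, and both lipoxin arrays below it, by -0.21 and -0.31. IER3 was the only member placed this way, as were 2.74% of all measured genes.

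IER2, a nuclear protein with roles in transcription, lies on chromosome 19 (13150411 to 13154911) and had the brightest probe set of the members. It read 7307, 7032, 6756 and 5786 with leukotriene B4, leukotriene C4, lipoxin A4 and lipoxin B4, against 7234 in unstimulated cells. The first 3 stimulated arrays stayed within 0.10 of the unstimulated one on the log2 scale, and lipoxin B4 differed by -0.32.

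FOS, the partner that Jun proteins bind to form the AP-1 factor, lies on chromosome 14 (75278828 to 75282230). It read 4224 with leukotriene B4, 3617 with leukotriene C4, 3731 with lipoxin A4 and 3109.9 with lipoxin B4, against 3316 in unstimulated cells. Leukotriene B4 gave the highest value, a difference of 0.35, and lipoxin B4 the lowest, -0.09. Over all 5 arrays the highest and lowest signals were 1.36-fold apart.

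**Figure D2:**
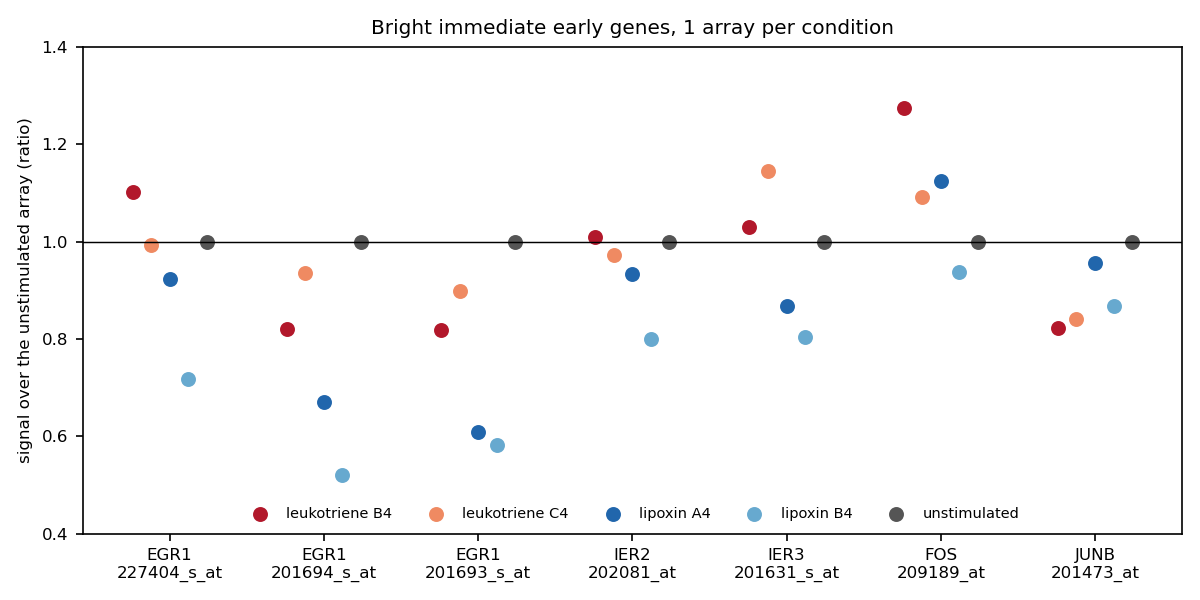
Signal of each probe set divided by its signal on the unstimulated array (vertical axis, ratio), for EGR1 (3 probe sets), IER2, IER3, FOS and JUNB; colours are the 5 arrays, 1 per condition. In every EGR1 probe set and in IER2 and IER3, the points of lipoxin A4 and lipoxin B4 lie under those of leukotriene B4 and leukotriene C4, whereas JUNB is lowest with leukotriene B4.

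The size of these differences was set beside that of genes of like brightness. Among the 1903 genes with a mean signal of 2000 to 5000, the 5th and 95th percentiles of the lipoxin B4 difference were -0.28 and 0.39, with a median of 0.09. EGR1 at -0.48 lay outside this range, IER3 at -0.31 just outside it, and FOS inside it. Among the 1226 genes brighter than 5000, the range was -0.43 to 0.26 and the median -0.03, so IER2 at -0.32 lay inside. For lipoxin A4 the range of the 2000 to 5000 class was -0.20 to 0.30, with IER3 at -0.21 at its edge and EGR1 at -0.12 inside. With leukotriene B4 the range was -0.27 to 0.33, with FOS at 0.35 and JUNB at -0.28 each just past an end. With leukotriene C4 it was -0.20 to 0.38, and JUNB at -0.25 was the only one of the 4 members in the class to lie outside.

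JUNB, a Jun protein that often restrains the activity of JUN, lies on chromosome 19 (12791486 to 12793315). It read 2046 with leukotriene B4, 2091 with leukotriene C4, 2378 with lipoxin A4 and 2156 with lipoxin B4, against 2485 in unstimulated cells. All 4 stimulated arrays were below the unstimulated one, by -0.28, -0.25, -0.06 and -0.21, which was also true of 21.4% of measured genes and of 9.40% of those with a mean signal over 2000. JUNB ran opposite to EGR1 in the order of the classes: both leukotriene arrays were below both lipoxin arrays.

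JUN, the founding member of its family and a partner of Fos proteins, lies on chromosome 1 (58780791 to 58784047). Its brightest probe set, 201464_x_at, read 414, 442, 439.9 and 438 with leukotriene B4, leukotriene C4, lipoxin A4 and lipoxin B4, against 358 in unstimulated cells. All 4 stimulated arrays were above the unstimulated one, by 0.21 to 0.30, as was the case for 24.2% of measured genes. The ending _x_at marks a probe set with probes that may bind other transcripts. The other 3 JUN probe sets were dim, with mean signals of 47.7 to 93.5, and did not repeat this order: 201465_s_at differed by 0.21, -0.32, 0.48 and 0.60, and 201466_s_at by 0.32, -0.41, -0.37 and 0.41. The last, 213281_at, was above the floor on the leukotriene arrays only, at 56.2 and 69.0.

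**Figure D3:**
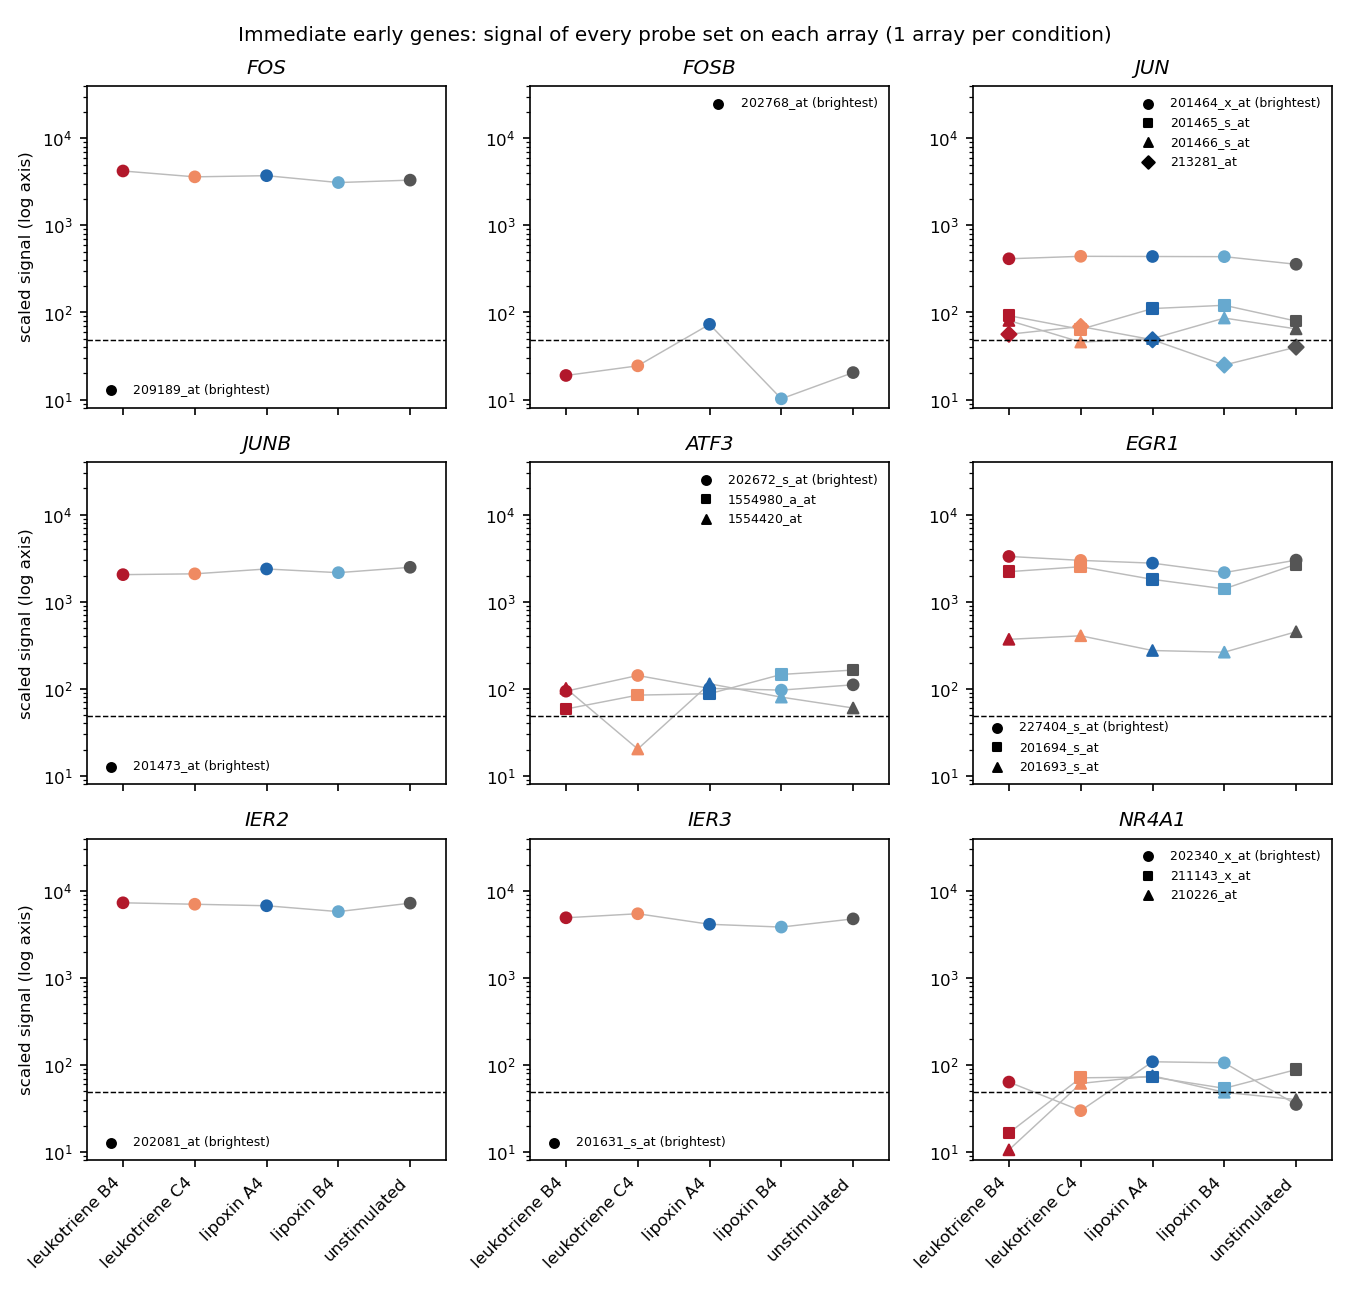
Scaled signal (log axis) of all 18 probe sets of the 9 genes on the 5 arrays, 1 array per condition; marker shapes are probe sets and the dashed line is the floor of 48.7. FOS, JUNB, EGR1, IER2 and IER3 lie far above the floor, whereas ATF3 and NR4A1 lie near it with probe sets that cross, and FOSB is above it on the lipoxin A4 array only.

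The dim members gave the largest differences and the least agreement between probe sets. NR4A1, an orphan nuclear receptor that limits inflammatory gene expression in macrophages, lies on chromosome 12 (52022832 to 52059503). Its brightest probe set, 202340_x_at, read 63.7 with leukotriene B4, 29.9 with leukotriene C4, 109 with lipoxin A4 and 106 with lipoxin B4, against 35.2 in unstimulated cells. The leukotriene C4 and unstimulated values lie under the floor. Both lipoxin arrays were thus high, at least 2.25-fold and at least 2.19-fold over the unstimulated array. The probe set 211143_x_at ran the other way, at 16.6, 71.3, 72.8 and 54.0 in the same order, against 88.6 in unstimulated cells, with -0.28 for lipoxin A4 and -0.71 for lipoxin B4. In 210226_at, lipoxin A4 gave 75.2 and lipoxin B4 48.6, against 40.1, so the first was at least 1.54-fold higher and the second was under the floor. The higher NR4A1 signal with lipoxin B4 was therefore seen in 1 of 3 probe sets.

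ATF3, a factor of the cyclic AMP response element family induced by stress, lies on chromosome 1 (212565407 to 212620777). Its 3 probe sets had mean signals of 109, 108 and 75.1 and pointed in different directions. The brightest, 202672_s_at, read 93.8, 142, 101 and 96.5 with leukotriene B4, leukotriene C4, lipoxin A4 and lipoxin B4, against 111 in unstimulated cells, with the leukotriene C4 array highest. The next, 1554980_a_at, read 58.5, 84.5, 87.7 and 146, against 164, so leukotriene B4 was 2.81-fold lower there (-1.49). The dimmest, 1554420_at, read 101, 20.3, 114 and 80.1, against 60.1, with leukotriene C4 under the floor and lipoxin A4 highest. For none of the 4 compounds did the 3 ATF3 probe sets share a direction.

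FOSB, a Fos protein known for its lasting isoform in neurons, lies on chromosome 19 (45467996 to 45475179) and entered the measured genes through 1 array. It read 73.1 with lipoxin A4 and was under the floor with leukotriene B4 (18.9), leukotriene C4 (24.4) and lipoxin B4 (10.2), against 20.4 in unstimulated cells. The lipoxin A4 value was above the floor, and so above the unstimulated one, by at least 0.59 on the log2 scale.

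Counted over the 9 genes, 1 was at least 2-fold apart with lipoxin A4 and with lipoxin B4, NR4A1 in both, and 0 with leukotriene B4 or leukotriene C4. Over all 15374 measured genes, 2.43%, 2.50%, 2.46% and 2.89% were called in these comparisons, so the counts of 1 and 0 do not stand apart from the background. The median difference of the 9 genes was 0.04 with leukotriene B4, 0.00 with leukotriene C4, -0.06 with lipoxin A4 and -0.21 with lipoxin B4, beside medians of 0.00, 0.06, 0.00 and 0.00 over all measured genes. With specific probe sets only, which measured 7 of the genes, the lipoxin A4 median was 0.17 and the lipoxin B4 median 0.00, and with the mean of all probe sets the lipoxin B4 median was -0.09. These comparisons share the unstimulated array. Among the 5 genes brighter than 2000, the medians were 0.04, -0.01, -0.10 and -0.31 in that order, beside 0.06, 0.13, 0.05 and 0.05 over the 3129 genes as bright.

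**Figure D4:**
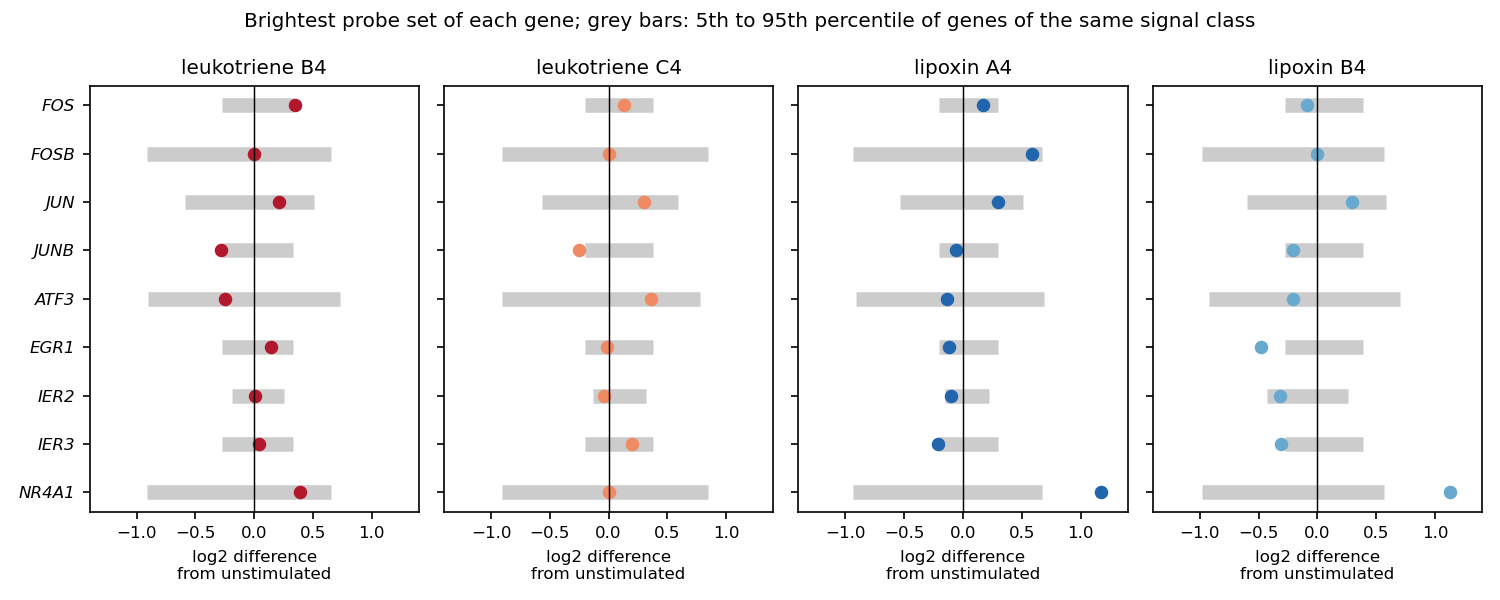
Log2 difference from the unstimulated array (horizontal axis) for the brightest probe set of each of the 9 genes, 1 panel per compound; grey bars run from the 5th to the 95th percentile of the genes of the same signal class. EGR1 with lipoxin B4 (-0.48) and NR4A1 with both lipoxins (1.17 and 1.13) lie clear of their bars.

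Between the classes, the mean log2 signal of the leukotriene arrays minus that of the lipoxin arrays was 0.36 for EGR1, 0.38 for IER3, 0.20 for IER2 and 0.20 for FOS. The 5th and 95th percentiles were -0.18 and 0.19 for genes of 2000 to 5000 and -0.11 and 0.28 for brighter ones, so EGR1 and IER3 lay past their range, FOS at its edge and IER2 within it. The other EGR1 probe sets gave 0.57 and 0.53. In 3 of 9 genes (EGR1, IER2 and IER3) both leukotriene arrays were above both lipoxin arrays, which held for 17.3% of all measured genes and 27.3% of those over 2000. In 2 of 9 (JUNB at -0.13 and NR4A1 at -0.96) they were below, against 11.2% of all. JUNB lay within the range of -0.18 to 0.19, with leukotriene C4 minus lipoxin B4 at -0.04. NR4A1 lay past the -0.42 to 0.58 of its dim class, but its leukotriene C4 value was under the floor. Its other 2 probe sets did not keep the order, with leukotriene C4 at 71.3 and 61.4 against lipoxin B4 at 54.0 and 48.6. The bright controls cre, GAPDH and ACTB, given above, had the class order of EGR1, IER2 and IER3. Their part in these results was not tested.

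Among the 6 pairs of compounds at the same dose and time, the 9 genes had medians of 0.00 for leukotriene B4 minus leukotriene C4, 0.14 for lipoxin A4 minus lipoxin B4, and -0.09 to 0.22 for the other 4. The only pairs with a member 2-fold apart were leukotriene C4 with lipoxin A4 and with lipoxin B4, where NR4A1 was at least 2.25-fold and at least 2.19-fold lower on the leukotriene C4 array, and 2.25% and 2.18% of all genes were called. The other 4 pairs had 0 members 2-fold apart, with 2.45% of all genes called between the leukotrienes, 1.32% between the lipoxins, and 1.48% and 1.29% for leukotriene B4 with lipoxin A4 and lipoxin B4. EGR1 was higher with leukotriene B4 than with lipoxin B4 by 0.62 and than with lipoxin A4 by 0.26, past the 95th percentiles of 0.23 and 0.21 of its signal class. With leukotriene C4 it was higher by 0.47 than with lipoxin B4, past 0.29, and by 0.11 than with lipoxin A4, within the range. IER3 was past the 95th percentile in all 4 of these pairs, with 0.35, 0.25, 0.51 and 0.40 in the same order, where the last was set against 0.30. IER2 was within the range of its class in each of them. Between the lipoxins, FOSB was measured through the lipoxin A4 array alone, which fixed its order. The other 8 genes were higher with lipoxin A4 than with lipoxin B4, by 0.01 in JUN to 0.36 in EGR1, while 45.3% of measured genes and 54.4% of those over 2000 lay this way. After quantile normalization JUN and NR4A1 no longer did. JUN also did not with values as deposited or with specific probe sets only, and JUN and ATF3 did not with the mean of all probe sets. The order was reversed in JUN 201465_s_at (111 with lipoxin A4, 121 with lipoxin B4), in JUN 201466_s_at (50.1 and 86.3) and in ATF3 1554980_a_at (87.7 and 146). EGR1 at 0.36 and FOS at 0.26 were past the range of -0.25 to 0.23 of their signal class, and the others were within theirs. Between the leukotrienes, ATF3 gave -0.60 and NR4A1 0.39, both within the range of equally dim genes, and FOS at 0.22 lay at the end of a range of -0.31 to 0.22. With 1 array per compound no interval can be given for these differences, and small ones do not show that compounds act alike.

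Other genes of the same pathway were counted whole. Of 19 other Fos, Jun, Maf and ATF family genes, 16 were measured. By brightest probe set, 0 were 2-fold apart with any compound. Over all measured genes, 2.43% to 2.89% were called per compound, so a count of 0 does not stand apart. The range was -0.56 to 0.93, the highest from BATF2, which was above the floor with leukotriene C4 only. Other probe sets passed 2-fold, among them ATF7 (-1.84 with lipoxin B4), ATF5 (-1.61 with leukotriene B4, 1.11 with lipoxin A4) and CREM (1.02 with lipoxin B4). Their medians were -0.09, 0.04, -0.03 and -0.12 with leukotriene B4, leukotriene C4, lipoxin A4 and lipoxin B4. JUND, the Jun protein least dependent on stimulation, read 8937, 8759.6, 9812 and 8751 on these arrays, against 9661 in unstimulated cells, with differences of -0.14 to 0.02. Its other probe sets ranged from -0.97 to 0.67. Among upstream kinases and factors, 18 of 22 were measured and 0 were 2-fold apart by brightest probe set. The background is again 2.43% to 2.89% per compound. Other probe sets passed 2-fold, among them MRTFA (-1.33 with leukotriene C4) and CREBBP (-1.16 with lipoxin B4). SRF, the serum response factor itself, read 521, 379, 319 and 441, against 429, without the order seen in EGR1. The EGR corepressor genes NAB1 and NAB2 stayed between -0.16 and 0.35 by brightest probe set. Other probe sets reached 0.73 in NAB1 with leukotriene B4 and -0.59 in NAB2 with lipoxin B4.

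Of 30 other immediate early genes, 27 were measured, with 1 called higher with leukotriene C4, 1 lower with lipoxin A4 and 1 lower with lipoxin B4. Over all measured genes, 1.21%, 1.70% and 1.97% were called in these directions. ZFP36L1, an RNA-binding protein that hastens mRNA decay, was the higher one, at 411 with leukotriene C4 against 177 in unstimulated cells (1.22), while its other 2 probe sets gave -0.91 and 0.28. PLK3, a polo-like kinase of the stress response, was the lower one with both lipoxins, at 59.7 with lipoxin A4 and 60.3 with lipoxin B4 against 145 in unstimulated cells, and read 92.7 and 152 with leukotriene B4 and leukotriene C4. Its other probe set gave -0.62 and -0.28 with the lipoxins and 0.08 and 0.13 with the leukotrienes, so both probe sets put the lipoxin arrays lower. EGR3, a relative of EGR1, entered the measured genes through the unstimulated array alone, at 52.7 against the floor of 48.7. It was under the floor on every stimulated array, a difference of -0.12, and this way of entry fixed its order. ZFP36, whose product destabilises cytokine mRNAs, read 2443, 2276, 2136 and 2145, against 2838, so it was lower with all 4 compounds by -0.22 to -0.41. The unstimulated array was likewise highest in 21.4% of measured genes and 9.40% of those over 2000.

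**Figure D5:**
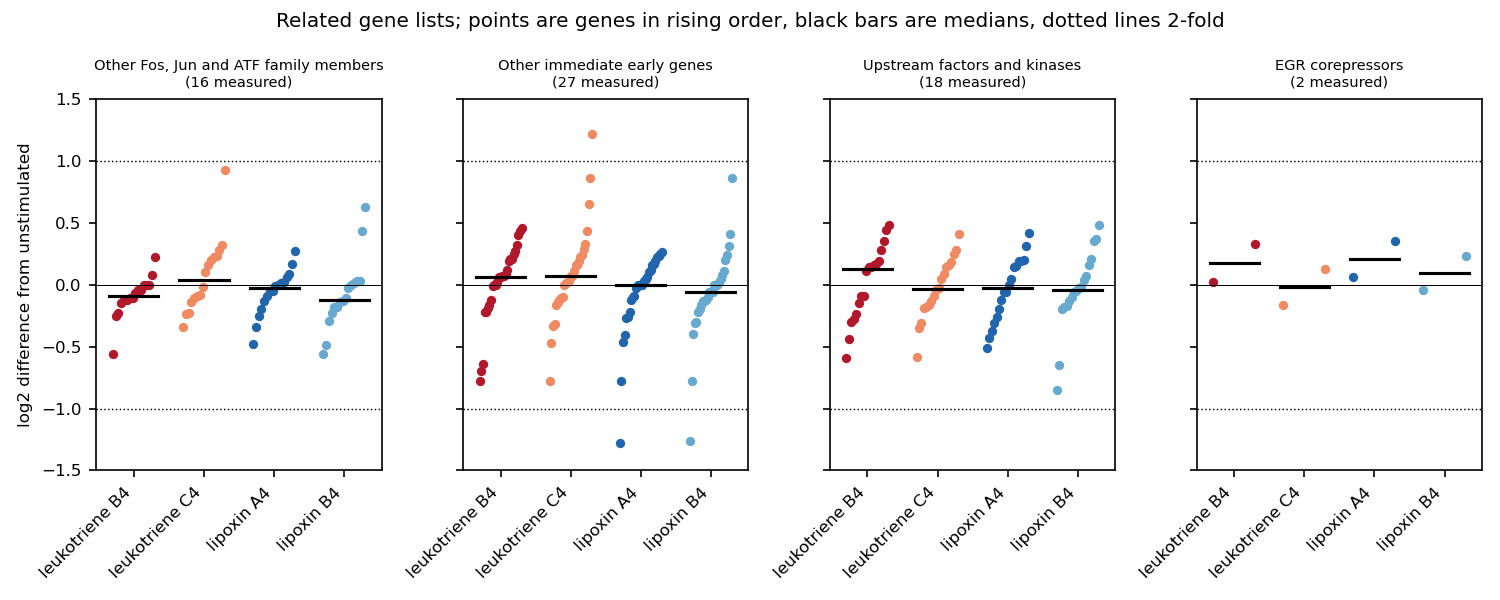
Log2 difference from the unstimulated array (vertical axis) of each measured gene of 4 related lists, by compound; points are genes in rising order, black bars medians and dotted lines 2-fold. Of the 63 measured genes, ZFP36L1 with leukotriene C4 (1.22) and PLK3 with lipoxin A4 (-1.28) and lipoxin B4 (-1.26) pass a dotted line.

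The genes whose 4 differences from unstimulated cells lay nearest to a member's were looked up among genes above the floor on all 5 arrays and within 4-fold of its mean signal. For EGR1 these were SLC7A5, an amino acid transporter (root mean square distance 0.058 over 4 arrays), and CD300A, an inhibitory receptor of myeloid cells (0.061), among 5683 candidates. For IER3 they were GTF3C1 (0.054) and SF3B6 (0.072), and for IER2 RAC1 (0.039) and HMGN1 (0.041). FOS lay nearest to SPTBN1 (0.030) and EDEM3 (0.039), JUN to CEP63 (0.019) and MLST8 (0.022), JUNB to RPP25 (0.023) and CNOT2 (0.035), and ATF3 to TIGD5 (0.053) and OGDHL (0.072). With so many candidates and only 4 values that share 1 unstimulated array, near matches are common and describe these arrays only.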

How the data were processed

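Signals were deposited as 1 intensity per probe set and array, linear in scale. GCOS 1.4 is named for the authors' processing, per the submitters' processing notes; the algorithm was not stated. After trimming 2% of probe sets at each end, the mean of each array came to 500.1, so scaling preceded deposit. Of 54675 probe sets, 41097 carry 1 symbol, 1801 several, and 11777 are not listed in the annotation. Genes and positions were matched by gene identifier to GRCh38.p14 for 41043 probe sets.

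Each array was multiplied by 1 factor (0.978 to 1.027) so that medians over the upper 50% of probe sets were equal, using Python 3.11.15 and pandas 2.3.3. The floor was the 50th percentile of mean log2 signal. Of the 9 members, 7 were above it on all 5 arrays; in all, 11 of 18 probe sets were. The counting step was checked on simulated data. There is no replicate and no depth measure, and the number of arrays limits precision. Promoter windows came from RefSeq.

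All members were named; genes of the related lists were named when 2-fold apart. EGR3, JUND, SRF, ZFP36, CD14, CD4, NAB1 and NAB2 were named after the values were seen. The counts of members by the order of the leukotriene and lipoxin arrays were also added then. The members and lists were chosen with earlier results of these data known. Alternatives covered the floor, the scaling, the choice of probe set, an added constant and the fold threshold.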

Additional observations from a re-analysis of the deposited data

Results flagged for a closer look

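IER3 was singled out because both leukotriene arrays lay above the unstimulated array and both lipoxin arrays below it. The log2 differences were 0.04 with leukotriene B4, 0.20 with leukotriene C4, -0.21 with lipoxin A4 and -0.31 with lipoxin B4. The difference between the classes was not tested, since each compound has 1 array. The value with leukotriene B4 is close to 0, and of all measured genes 2.74% lay the same way.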

How the results depend on the processing

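No paired analysis was possible because each condition has 1 array. EGR1, IER2 and IER3 had both leukotriene arrays above both lipoxin arrays under every alternative that kept them. The floors, the added constant and leaving out an array cannot undo this order in genes so bright, so they do not test it. The scaling could have changed it, and in EGR1 so could the mean of all probe sets, while IER2 and IER3 have 1 probe set each. With specific probe sets only, those without the endings _s_at, _x_at and _a_at, EGR1 and IER3 had none. There the order held for IER2, and JUN, read from another probe set, took it. Leaving out 1 stimulated array at a time gave 3 to 5 such members, the 5 without leukotriene B4. Members with leukotrienes below lipoxins numbered 2 to 4 when 1 array was left out, the 4 without leukotriene C4, 1 with the floor at the 70th percentile and 1 with specific probe sets only. Members lowest with lipoxin B4 numbered 4, and 2 with specific probe sets only. They numbered 5 with the added constant and with the floor at the 30th percentile, where FOSB joined. Members with the unstimulated array outermost numbered 2, while 45.6% of all measured genes had it outermost. They numbered 3 after quantile normalization, with values as deposited and with the mean of all probe sets, and 1 with specific probe sets only. When 1 array was left out they numbered 2 to 4, the 4 without leukotriene B4 or without leukotriene C4. With lipoxin A4, the count of members 2-fold apart was 1. It was 2 with the added constant of 32 and with the floor at the 30th percentile, where FOSB joined NR4A1. It was 0 with the floor at the 70th percentile, with the mean of all probe sets and with specific probe sets only. With lipoxin B4 the count was 1, but 0 under these last 3 settings. At a threshold of 1.5-fold, 2 members (FOSB and NR4A1) were called with lipoxin A4, beside 9.93% of all measured genes. The median with leukotriene C4 was 0.00, but 0.11 with the added constant and 0.13 with the floor at the 30th percentile. With lipoxin A4 it was -0.06, but 0.17 with specific probe sets only. With lipoxin B4 it was -0.21, but -0.09 with the mean of all probe sets and 0.00 with specific probe sets only. Lipoxin A4 minus lipoxin B4 gave 0.14, but 0.26 with specific probe sets only. Leukotrienes minus lipoxins gave 0.20, but -0.09 with the mean of all probe sets and -0.13 with specific probe sets only; without 1 array it lay between -0.07 (without leukotriene C4) and 0.26, with 0.09 without leukotriene B4 and 0.07 without lipoxin B4. The floor at the 70th percentile and specific probe sets only bring in fewer members, and the choice of probe set brings in other probe sets. The added constant and the floor at the 30th percentile keep every measured member but change how values under the main floor are read. A lower threshold calls smaller differences. Leaving out an array leaves fewer arrays to be ordered or averaged. Beyond that the cause was not tested. Of 232 single differences recomputed, 39 moved by over 0.1 and 10 turned sign, among them ATF3 with leukotriene C4 (0.36, but -0.30 with the mean of all probe sets) and NR4A1 with leukotriene B4 (0.39, but -0.16). Signals near the floor limit FOSB, NR4A1, ATF3 and 3 of 4 JUN probe sets.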
